A study of Mus musculus with 32 samples.

Results

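This account describes ageing of the hippocampus in mice that lack NLRP3, labelled CIAS -/- after an older name of the gene. The samples were chosen by their titles: 6 arrays of old and 3 arrays of young CIAS -/- hippocampus, 9 of the 32 arrays of the study. The old samples are titled 23 months, and the study's design text gives old age as 21 to 23 months. The young samples are 1 month of age. Set beside them were old and young ASC -/- mice (6 and 3 arrays) and old and young wild type mice (6 and 4 arrays). A further group of young CASP11 -/- mice (4 arrays) entered the shared normalization, probe choice and estimate of the spread. Its levels are given for a few genes. All groups are C57BL/6J mice on a chow diet. The sources used here do not give how the CIAS and ASC alleles were made, the sex of the mice, or whether an array holds 1 animal. A p-value therefore measures the spread between these arrays, which may be technical. Total RNA was hybridised to Illumina bead arrays, on which the brightness of a probe stands for the amount of its transcript.

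NLRP3 is a cytosolic sensor of danger signals, found in the brain mainly in microglia. On activation it assembles with the adaptor ASC, encoded by Pycard, and the protease caspase-1 into the inflammasome, which matures the cytokines interleukin-1 beta and interleukin-18. The study compared young and old mice with and without parts of this complex. In ageing rodent brain, markers of glial activation are known to increase, while dividing progenitors and newly formed neurons and oligodendrocytes decline after the juvenile period. A comparison of 1 month with old age therefore spans both late postnatal development and ageing.

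Levels are given as log2 of the background-corrected, quantile-normalized signal, and an age effect is the old minus the young mean of that level. Of 25697 probes, 14745 were detected (detection p under 0.05) on at least 3 of the 32 arrays, and these gave 11178 features with 1 probe for each gene. A gene was called when its limma p-value, adjusted by the Benjamini-Hochberg method over all features, was under 0.05. The CIAS -/- arrays carried transcripts of hippocampal neurons: C1ql2, expressed by dentate granule cells, lay at 11.63 to 12.01 on the old and 11.68 to 11.76 on the young arrays, and Fibcd1, expressed by CA1 neurons, at 11.63 to 11.98 and 11.85 to 11.98. Between 13172 and 13900 probes were detected on the old arrays, against 13273 to 13345 on the young ones, a difference within the spread (exact permutation p = 0.381, two-sided, 84 splits). The number of arrays limits the precision.

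Some old arrays stood apart. Old replicate 5 carried a high level of Xist, the RNA that silences an X chromosome in female cells (7.76, against 4.90 to 5.22 on the other old and 5.22 to 5.42 on the young arrays). The same array had the Y-linked Eif2s3y at 9.91, within the range of the other 8 CIAS -/- arrays, so transcripts typical of both sexes were present on 1 array. Old replicate 1 was much lower in transthyretin (Ttr), the leading transcript of choroid plexus, at 9.61 against 14.03 to 14.43 on the other old and 13.68 to 14.38 on the young arrays. Old replicate 3 was high in the neutrophil genes S100a8, S100a9 and Ltf (8.17, 8.03 and 7.41). The results were therefore also computed without old replicate 5 and without old replicates 1 and 5. Among the wild type arrays, old replicate 6 went against its hippocampal label. It had C1ql2 at 6.84 and Fibcd1 at 8.79, against 11.59 to 12.11 and 11.58 to 11.98 on the other old wild type arrays, and Drd1, a receptor gene of the striatum, at 11.63, against 7.03 to 7.23. Wild type age effects are therefore also given without that array where they move. Xist, Eif2s3y, Ttr and Ltf are named here because of the values they showed.

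Old CIAS -/- hippocampus differed from young in 82 of 11178 features (0.734%), of which 53 were higher (0.474%) and 29 lower (0.259%). Named genes made up 44 of the higher and 28 of the lower features, and the other features have no gene symbol. At an unadjusted p under 0.05 there were 1362 features (12.2%). Most changes were small: the median size among the called features was 0.56 on the log2 scale, with 6 features at least 2-fold higher and 2 at least 2-fold lower. The old and young arrays did not overlap for 80 of the 82, and the same held for 778 of all features (6.96%), with every old array above every young one in 4.17% and below in 2.79%. Without old replicate 5 the count was 81, and without old replicates 1 and 5 it was 74. It fell to 34 without young replicate 4 and to 42 without young replicate 2, and it was 133 without wild type old replicate 6. That array enters the CIAS -/- age effect only through the shared normalization, probe choice and spread. Of the 72 called features with a gene symbol, the 52 picked to be named here were checked array by array. With any 1 of the 9 CIAS -/- arrays left out, 15 of these 52 kept their call: Upk1b, C4b, Gstt3, Abca8a, Tnfsf13b, Gpr17, Mkrn3, Prc1, H2ac12, Pbk, Chst3, Gamt, Rnase4, Cbx8 and Lsp1. The other 37 of the 52 lost it under at least 1 of the 9.

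**Figure D1:**
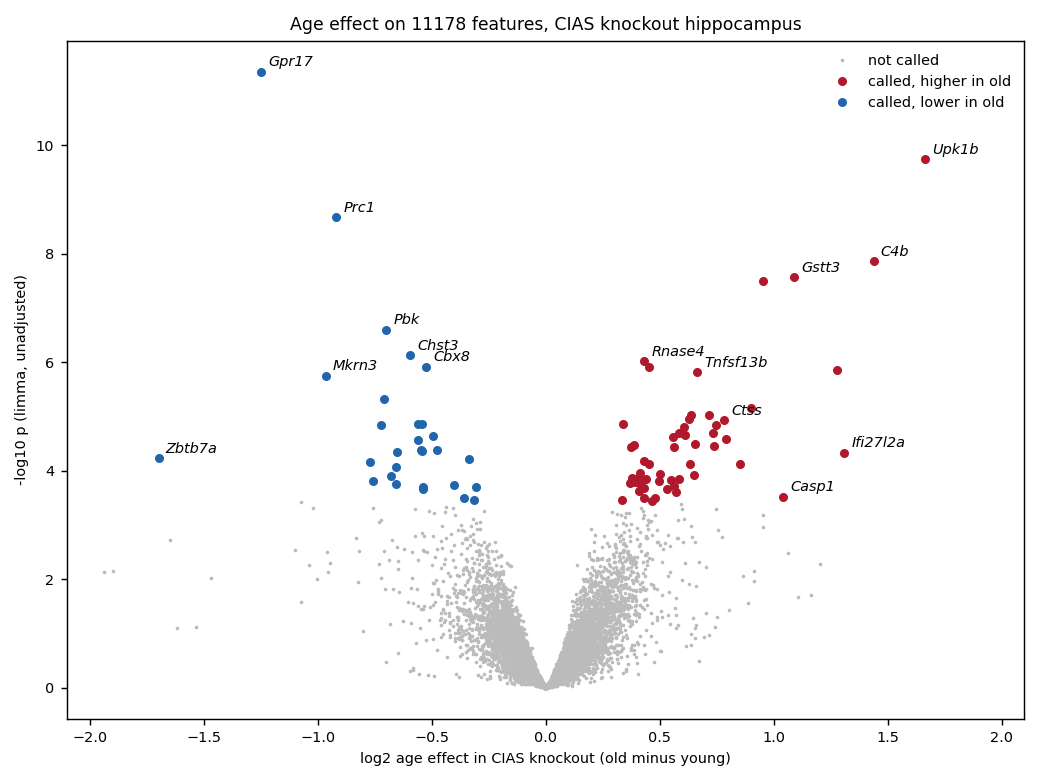
Log2 age effect of each of the 11178 features in CIAS -/- hippocampus (horizontal axis, old minus young) against -log10 of the unadjusted limma p-value (vertical axis). Red points are the 53 features called higher in old and blue points the 29 called lower, and Gpr17, Upk1b, Prc1 and C4b lie highest among the named genes.

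The inflammasome genes come first, since the genotype removes one of them. Neither probe of Nlrp3 was detected on any of the 32 arrays, so the arrays give no check of the genotype labels. The adaptor gene Pycard was likewise detected on none. Caspase-1 (Casp1) lay at 8.00 (lowest), 8.36 (median) and 8.62 (highest) on the old arrays, against 7.26, 7.57 and 7.05 on the young arrays. Every old array was above every young one, and the mean difference was 2.06-fold (log2 1.04 ± 0.25 SE, adjusted p = 0.0445). This call was close to the threshold. It was lost when any CIAS -/- array other than old replicate 1 was left out, with an adjusted p of up to 0.333 and log2 effects of at least 0.92. With wild type old replicate 6 left out, the CIAS -/- effect was again 1.04 and the limma adjusted p was 0.000281.

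The substrates and the caspase of the non-canonical pathway did not pass the test. Interleukin-18 (Il18) was at 8.61 to 8.77 on the old and 8.65, 8.65 and 8.52 on the young arrays, a difference of 0.07 (adjusted p = 0.798). Il1b was near the detection limit, detected on 2 of 6 old and 0 of 3 young arrays, and differed by 0.13 (adjusted p = 0.676). Casp4, the gene of mouse caspase-11, differed by -0.14 (adjusted p = 0.575). Its probe read 5.32 to 5.52 on the CASP11 -/- and 5.24 to 5.66 on the young wild type arrays, so it did not register that knockout. The other Casp4 probes were detected on none of the 9 CIAS -/- arrays. The alarmin interleukin-33 (Il33), a nuclear cytokine that in brain is made largely by oligodendrocytes and astrocytes, was at 9.00, 9.36 and 9.84 (lowest, median, highest) on the old arrays and 8.76, 8.67 and 8.60 on the young arrays. It rose 1.67-fold (log2 0.74 ± 0.15 SE, adjusted p = 0.0108), and lost its call without young replicate 2 or 4 (adjusted p of up to 0.123). Il33 was lowest on old replicates 5, 1 and 3, the arrays that were also lowest in myelin transcripts. Of 35 inflammasome and interleukin-1 genes listed, 16 were measured and Casp1 and Il33 were the members called, both higher. Over all features 0.734% were called. The list median was 0.0656 (0.0798 without old replicate 5), beside -0.00214 over all features.

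Complement C4b was among the genes with the largest increases. C4b, an opsonin precursor of the classical pathway, was at 8.78, 9.08 and 9.29 (lowest, median, highest) in old and at 7.40, 7.60 and 7.89 in young hippocampus. Every old array was well above every young one, and the mean level was 2.71-fold higher in old (log2 1.44 ± 0.18 SE, adjusted p = 3.85e-05). C4b has a near-identical neighbour, C4a, which the probe may not tell apart. C4b was the called member of the 11 complement genes measured, of which 8 lay above 0, with a median of 0.301 (0.278 without old replicate 5). Over all features, 0.734% were called and 49.3% lay above 0. C1qa, a subunit of the initiating complex, was at 6.67 to 6.85 on the old and 6.32 to 6.50 on the young arrays. The 2 groups did not overlap, but its difference of 0.34 did not pass (adjusted p = 0.106). Cr1l, a regulator of complement on cell surfaces, differed by -0.30 (adjusted p = 0.0996).

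Upk1b, a tetraspanin of the urothelial plaque, showed the largest called increase. Its level was 6.99, 7.19 and 7.50 (lowest, median, highest) in old CIAS -/- hippocampus, against 5.81, 5.41 and 5.42 in young. The increase was 3.17-fold (log2 1.66 ± 0.17 SE, adjusted p = 1.01e-06), and the arrays of the 2 ages were far apart relative to their spread. The glutathione transferase gene Gstt3 rose 2.13-fold (adjusted p = 5.99e-05), with old arrays at 7.46 to 7.68 and young arrays at 6.41, 6.34 and 6.78. Abca8a, a lipid transporter of the ABC family, was at 7.81 to 8.48 on the old and 7.11 to 7.25 on the young arrays, and rose 1.94-fold (adjusted p = 5.99e-05). Among 42 glutathione and xenobiotic genes measured, Gstt3 and the cytochrome Cyp4f15 (0.41, adjusted p = 0.0265) were higher and none lower. Of 30 lipid transport genes, Abca8a and the apolipoprotein gene Apoc1 (0.43, adjusted p = 0.045) were higher and none lower. Beside these 2 lists, 0.474% of all features were called higher and 0.259% lower. Apoc1 lost its call without old replicate 5 (adjusted p = 0.0757) and under 5 other left-out arrays. Cyp4f15 lost its call without any 1 of the young arrays (adjusted p of up to 0.16).

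**Figure D2:**
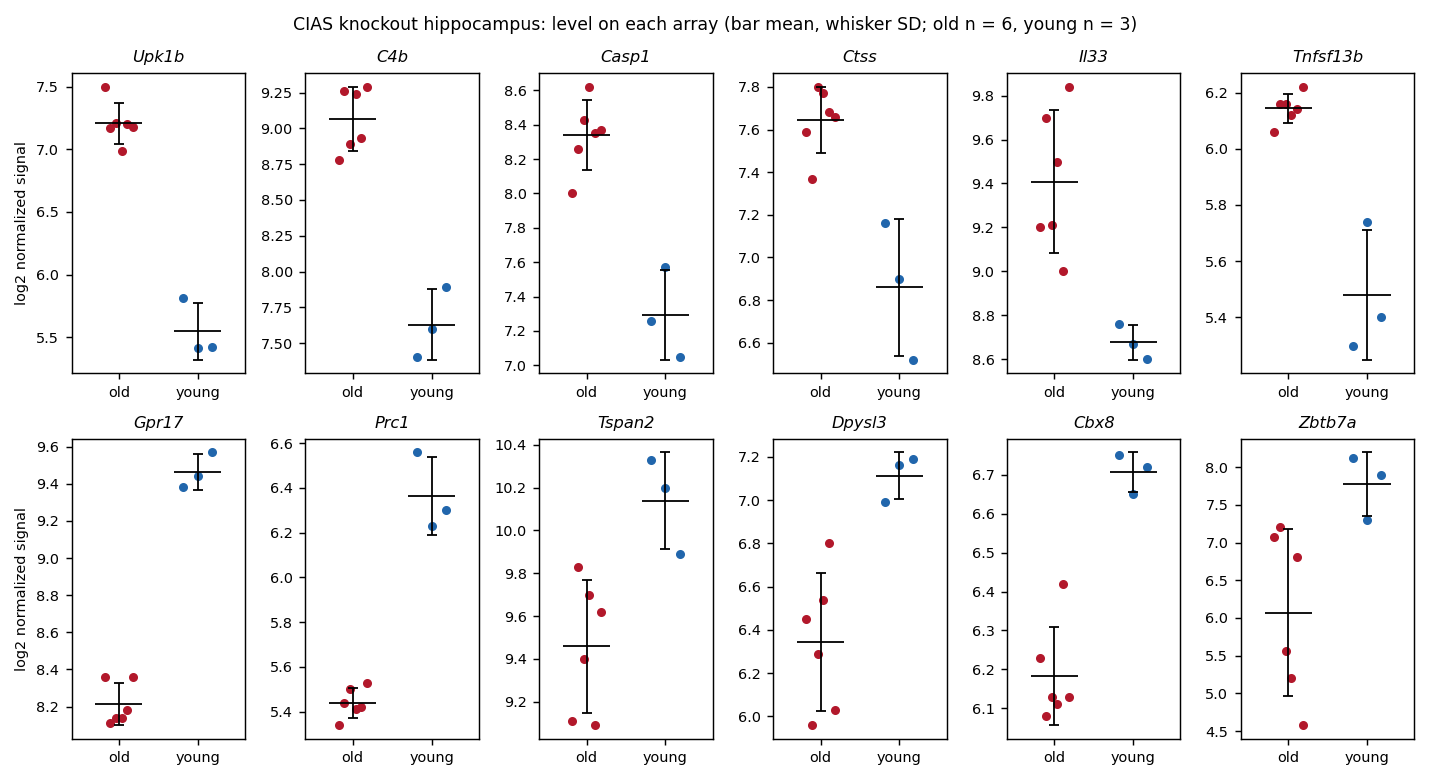
Log2 normalized signal of 12 called genes on each CIAS -/- array, old (red, n = 6) left of young (blue, n = 3), with the mean as a bar and the SD as a whisker. The old and young arrays of every gene shown are separate. The old arrays of Zbtb7a are spread widely, between 4.58 and 7.20.

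The microglial genes that passed the test were higher in old age. Cathepsin S (Ctss), a lysosomal protease of microglia that also trims the invariant chain of MHC class II, was at 7.37, 7.67 and 7.80 (lowest, median, highest) in old and 7.16, 6.90 and 6.52 in young hippocampus. It rose 1.72-fold (log2 0.78 ± 0.15 SE, adjusted p = 0.00645), and lost its call without young replicate 4 (adjusted p = 0.15). Rnase4, a secreted ribonuclease, rose by 0.43 (adjusted p = 0.0012), while its second probe, detected on 2 of the 9 arrays, differed by 0.11. These were the called members of 26 homeostatic microglia genes measured, of which 21 lay above 0 with a median of 0.154 (0.131 without old replicate 5), beside 0.734% of all features called and 49.3% above 0. The summed level of that list, on the unlogged scale and so weighted to bright genes, was 9687 to 10170 on the old arrays. It was 8615 to 9064 on the young arrays, with no overlap. In this bulk tissue, more cells of a type and more RNA per cell cannot be told apart.

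None of 25 activated microglia genes passed the test, where 0.734% of all features did. Of the 25, 21 lay above 0, beside 49.3% of all features, with a median of 0.123 (0.11 without old replicate 5). The nearest to the threshold were Lyz1, lysozyme, at 8.49 to 9.64 in old and 8.12 to 8.52 in young (0.95, adjusted p = 0.07), and Gpnmb, a glycoprotein of lipid-laden phagocytes, at 7.36 to 7.80 in old and 6.74 to 6.95 in young (0.75, adjusted p = 0.102). Lyz1 overlapped between the groups on old replicate 1 alone. Trem2, a lipid receptor of microglia, was at 7.34 to 7.45 in old and 6.87, 7.09 and 7.11 in young, a difference of 0.37 that did not pass (adjusted p = 0.117). With wild type old replicate 6 left out, Gpnmb (limma adjusted p = 0.00311) and Trem2 (0.0482) passed and Lyz1 did not (0.0564). Further genes of myeloid cells were called higher outside these lists and were picked after their values were seen. They were Ms4a6d (0.64, adjusted p = 0.00586), the leukocyte actin-binding protein gene Lsp1 (0.61, adjusted p = 0.0068), Slamf9 (0.59, adjusted p = 0.0265) and the Fc receptor gene Fcgr3 (0.43, adjusted p = 0.0328). Fcgr3 lost its call under 6 of the 9 left-out arrays (adjusted p of up to 0.291) and Slamf9 under 4 (up to 0.217). Lsp1 lay at 6.03 to 6.29 on the old arrays, clear of 5.54 to 5.55 on the young ones. A second probe of Ms4a6d, detected on 1 of the 9 arrays, differed by 0.18.

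Most antigen presentation and interferon-stimulated genes lay above 0, with few calls. Over all features 49.3% lay above 0 and 0.734% were called. All 8 measured genes of the MHC class II list lay above 0 with a median of 0.572 (0.519 without old replicate 5). That median ranged between 0.211, under the stricter filter on dim probes, and 0.702, with the authors' normalized values. The one called was the protease Ctss, and no gene of a class II chain passed. H2-Aa, a chain of the class II molecule itself, was detected on 5 of 6 old and 0 of 3 young arrays, at 4.69 to 5.95 against 4.97, 4.74 and 4.52. Its measured means were 5.50 in old and 4.75 in young, at least 1.36-fold higher in old, which did not pass (adjusted p = 0.408), and old replicate 1 lay within the young range. Of 15 MHC class I genes measured, 12 lay above 0 and none passed. Beta-2 microglobulin (B2m), the shared light chain, was at 10.88 to 11.14 in old and 10.62 to 10.74 in young (0.41, adjusted p = 0.136), and the immunoproteasome subunit Psmb9 differed by 0.51 (adjusted p = 0.175).

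Among 28 interferon-stimulated genes, 26 lay above 0 with a median of 0.189 (0.211 without old replicate 5), and Trim30a was called. Trim30a, an interferon-induced ubiquitin ligase of mouse, was at 5.72, 5.76 and 6.01 (lowest, median, highest) in old and 5.10, 5.25 and 4.89 in young. It rose 1.64-fold (log2 0.72 ± 0.13 SE, adjusted p = 0.00586). Samd9l, at 7.99 to 8.33 in old and 7.99, 7.46 and 7.47 in young, missed the threshold (0.59, adjusted p = 0.0539), as did Ifit3 (0.60, adjusted p = 0.127). With wild type old replicate 6 left out, Samd9l passed (adjusted p = 0.0314) and Ifit3 did not (0.0931). Ifi27l2a, an interferon-induced mitochondrial protein gene, was at 5.92, 6.74 and 7.15 (lowest, median, highest) in old and 5.74, 4.98 and 5.40 in young. It rose 2.48-fold (log2 1.31 ± 0.27 SE, adjusted p = 0.0121), and lost its call without young replicate 2 or 4 (adjusted p of up to 0.152). Tnfsf13b, the B-cell survival factor BAFF, was tight on the old arrays at 6.06 to 6.22, against 5.30, 5.74 and 5.40 in young. It rose 1.58-fold (log2 0.66 ± 0.11 SE, adjusted p = 0.00132), its second probe by 0.60. It was the called member of 24 NF-kB and cytokine genes, with a median of 0.141 (0.138 without old replicate 5).

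The promoters of Ctss, Tnfsf13b and Trim30a are shown because each holds the core of the interferon-stimulated response element (GAAA, any 2 bases, GAAA) within the 250 bases before an annotated start. The RefSeq sequences (GRCm38.p6) give the 120 bases before the start, 5′ to 3′ on the gene's strand, with the match in capitals. In Trim30a the match lies on the opposite strand and reads as TTTC, 2 bases, TTTC.
Ctss, chr3:95526666-95526785, plus strand: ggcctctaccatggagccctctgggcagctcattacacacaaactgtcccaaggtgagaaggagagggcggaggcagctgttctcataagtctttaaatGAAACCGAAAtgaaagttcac
Tnfsf13b, chr8:10006513-10006632, plus strand: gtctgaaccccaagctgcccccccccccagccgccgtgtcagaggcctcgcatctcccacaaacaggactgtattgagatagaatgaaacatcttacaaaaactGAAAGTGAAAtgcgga
Trim30a, chr7:104465194-104465313, minus strand: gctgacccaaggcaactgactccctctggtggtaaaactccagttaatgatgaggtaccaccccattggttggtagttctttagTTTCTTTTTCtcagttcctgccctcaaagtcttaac

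Searched on both strands, the motif was found in these 3 of the 25 called-higher genes with a promoter in the table (12%), in 2 of 19 called-lower genes (10.5%), Grm8 and Tenm1, and in 3.11% of 8361 tested genes. In the interferon-stimulated list it was found in 13 of 24 (54.2%). A match describes these letters in these windows.

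Astrocyte genes changed in a few members. Osmr, the oncostatin M receptor, was at 6.71 to 6.98 in old and 6.19, 6.55 and 6.45 in young, and rose by 0.50 (adjusted p = 0.0275). Aspg, a gene induced in reactive astrocytes, was not above background on any of the young arrays and was detected on 5 of 6 old ones. Its measured means were 5.44 in old and 4.81 in young, at least a 1.30-fold increase (adjusted p = 0.0171). Both belong to 23 reactive astrocyte genes measured, of which 19 lay above 0 with a median of 0.238 (0.211 without old replicate 5), beside 0.734% of all features called and 49.3% above 0. The median of 26 general astrocyte markers was -0.0158. One of them, the calcium-binding protein gene S100b, was at 6.51 to 6.91 on the old and 5.69 to 6.22 on the young arrays, and rose 1.66-fold (log2 0.73 ± 0.14 SE, adjusted p = 0.00819). Sparcl1, a synaptogenic matrix protein of astrocytes, rose by 0.57 (adjusted p = 0.036), a call that was lost without old replicate 5 (adjusted p = 0.0692) and under 6 other left-out arrays. Osmr lost its call under 4 of the 9 left-out arrays (adjusted p of up to 0.164). Aspg lost it without any 1 of the young arrays (up to 0.142) and S100b without young replicate 2 or 4 (up to 0.153). Ntsr2, a neurotensin receptor of astrocytes, differed by -0.30 (adjusted p = 0.131).

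**Figure D3:**
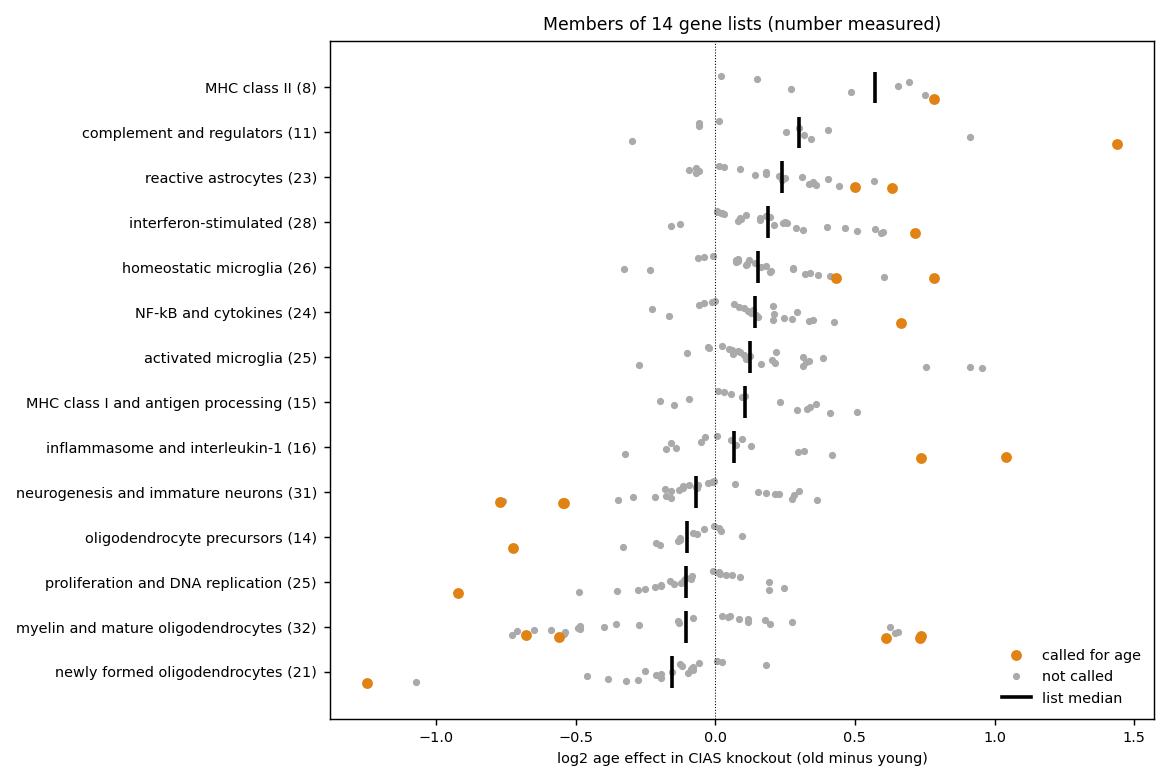
Log2 age effect in CIAS -/- hippocampus (old minus young, horizontal axis) of each measured member of 14 gene lists, with called members in orange, others in grey and the list median as a bar. MHC class II has the highest median (0.572, between 0.211 and 0.702 over the alternatives) and newly formed oligodendrocytes the lowest (-0.154).

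Gpr17 and Tnc, genes of the early oligodendrocyte lineage, fell. Gpr17, a receptor that marks precursors on their way to differentiation, was at 8.11, 8.16 and 8.36 (lowest, median, highest) in old hippocampus and at 9.38, 9.44 and 9.57 in young. It had the smallest adjusted p of all features, with a level in old 0.421 times that in young (log2 -1.25 ± 0.11 SE, adjusted p = 4.89e-08). Tenascin C (Tnc), a matrix protein of precursors and immature astrocytes, fell by 0.72 (adjusted p = 0.00645), at 5.67 to 5.96 in old and 6.22 to 6.82 in young, and by 0.56 on its second probe. Enpp6, a phosphodiesterase of newly formed oligodendrocytes, was spread from 5.50 to 7.47 on the old arrays and lay at 7.76, 7.69 and 7.34 in young. Its difference of -1.07 narrowly missed the threshold (adjusted p = 0.0512). It passed with wild type old replicate 6 left out (adjusted p = 0.0172). Of 21 genes of newly formed oligodendrocytes, 3 lay above 0 and the median was -0.154, the same without old replicate 5. Of 14 precursor genes, 3 lay above 0 and the median was -0.102 (-0.0981 without old replicate 5). Over all features 49.3% lay above 0. Emid1, the next member of the precursor list, differed by -0.33 (adjusted p = 0.0919).

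The called genes of the mature myelin list went both ways. Tspan2, a tetraspanin of myelin, was at 9.09, 9.51 and 9.83 (lowest, median, highest) in old and 10.33, 10.20 and 9.89 in young, a fall of 0.68 (adjusted p = 0.0249). Gal3st1, the enzyme that makes the myelin lipid sulfatide, fell by 0.56 (adjusted p = 0.009), at 7.42 to 7.86 in old and 7.99 to 8.37 in young. Pmp22, a peripheral myelin protein, rose by 0.61 (adjusted p = 0.0083), at 8.85 to 9.45 in old and 8.36 to 8.73 in young, and its second probe, detected on 2 of the 9 arrays, differed by 0.18. Il33 and S100b, described above, were the other called members of this list of 32, beside 0.734% of all features called. Mog, a surface protein of compact myelin, differed by -0.73 (adjusted p = 0.0857), with old arrays at 7.40 to 8.60 below young ones at 8.61 to 8.80. Mog passed with wild type old replicate 6 left out (adjusted p = 0.0418). The list median was -0.105, and it was 0.0183 without old replicates 1 and 5. Those 2 arrays had the lowest summed myelin levels (29300 and 33820), against 36230 to 47900 on the other old and 38000 to 48680 on the young arrays. Tspan2 lost its call without old replicate 5 (-0.61, adjusted p = 0.0537), without old replicate 1 (adjusted p = 0.051), without both (-0.50, adjusted p = 0.111) and without young replicate 1 or 2 (up to 0.149). Gal3st1 lost its call without old replicates 1 and 5 (adjusted p = 0.0544) and without young replicate 1 or 2 (up to 0.0781). The part of the differing myelin content in these results was not tested.

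A few genes of young neurons and of dividing cells fell, and no member of either list was called higher. Dpysl3 and Dpysl5 encode collapsin response mediators of growing axons. Dpysl3 was at 5.96, 6.37 and 6.80 (lowest, median, highest) in old and 6.99, 7.16 and 7.19 in young, a fall of 0.77 (adjusted p = 0.0163). Dpysl5 was at 6.61 to 7.13 in old and 7.33 to 7.48 in young, a fall of 0.55 (adjusted p = 0.0114). Nrep, a protein of regenerating neurons, fell by 0.54 (adjusted p = 0.00645). They were the called members of 31 neurogenesis genes, of which 9 lay above 0 with a median of -0.0681 (-0.0778 without old replicate 5). Over all features, 0.734% were called and 49.3% lay above 0. The summed level of this list was 26460 to 28130 on the old arrays and 28620 to 31230 on the young ones, with no overlap. Such a sum, on the unlogged scale, weighs bright genes such as Nrep most. Each of the 3 calls was lost without some young array: Dpysl3 without replicate 2 or 4 (adjusted p of up to 0.153), Dpysl5 without 1 or 4 (up to 0.129) and Nrep without 2 (0.132).

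Prc1, which bundles microtubules in the midzone of dividing cells, was at 5.34, 5.43 and 5.53 (lowest, median, highest) in old and 6.56, 6.23 and 6.30 in young. The groups lay far apart relative to their spread, and Prc1 fell to 0.528 times its young level (log2 -0.92 ± 0.11 SE, adjusted p = 7.84e-06). Pbk, a mitotic kinase, was not above background on any old array and was detected on all 3 young arrays. Its measured means were 4.46 in old and 5.16 in young, at least 1.09-fold lower in old (adjusted p = 0.000404). Prc1 was the called member of 25 proliferation genes, of which 9 lay above 0 with a median of -0.104 (-0.101 without old replicate 5), beside 0.734% of all features called and 49.3% above 0. Cyclin D2 (Ccnd2) differed by -0.49 (adjusted p = 0.0671) and the centromeric histone gene Cenpa by -0.35 (adjusted p = 0.121). Prc1 holds 1 match to the cell-cycle homology region, TTTGAA, in the bases before its start, a motif found in 12.4% of 8361 tested genes on either strand.
Prc1, chr7:80294356-80294475, plus strand: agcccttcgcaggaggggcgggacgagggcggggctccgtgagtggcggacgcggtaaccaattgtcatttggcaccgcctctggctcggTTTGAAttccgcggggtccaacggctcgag

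Among the called chromatin genes, 1 fell and 1 rose. Cbx8, a reader subunit of Polycomb repressive complex 1, was at 6.08 to 6.42 in old and 6.75, 6.65 and 6.72 in young, and fell by 0.52 (adjusted p = 0.00125). Its paralogue Cbx7 was at 8.48 to 8.81 in old and 8.28, 8.24 and 8.10 in young, and rose by 0.39 (adjusted p = 0.0106). Cbx7 lost its call without young replicate 4 (adjusted p = 0.16). They were the called members of 25 Polycomb and chromatin genes, beside 0.734% of all features called, and the list median was -0.0305. The imprinted gene Mkrn3, a ubiquitin ligase known in human for restraining the onset of puberty, was at 5.28 to 5.72 in old and 6.43, 6.45 and 6.58 in young. It fell to 0.512 times its young level (log2 -0.97 ± 0.16 SE, adjusted p = 0.00142) and was the called member of 23 imprinted genes.

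Some clustered histone genes fell as well, in a list made after these values were seen. H2ac12, H2ac10 and H2ac24 were called, by 0.71, 0.66 and 0.65 (adjusted p = 0.0035, 0.0302 and 0.0119). H2ac10 lost its call under 5 of the 9 left-out arrays (adjusted p of up to 0.219) and H2ac24 without any 1 of the young arrays (up to 0.0818). H2ac24 was at 8.78 to 9.68 in old and 9.85 to 9.90 in young, with old replicate 5 highest and old replicate 6 lowest among the old arrays, as for H2ac10. Of 10 clustered H2A genes measured, 9 lay below 0 with a median of -0.392, and 26 of 31 clustered histone genes of all types lay below 0 with a median of -0.197. These genes are near-identical copies that probes may not separate, so the members are not independent. Beta protocadherins, neuronal adhesion molecules encoded in 1 gene cluster, went the other way, in a list also made after the values were seen. Of 15 measured, 14 lay above 0 with a median of 0.263, where 49.3% of all features lay above 0. Pcdhb12 (0.65, adjusted p = 0.0106), Pcdhb9 (0.56, adjusted p = 0.0314) and Pcdhb17 (0.55, adjusted p = 0.0275) were called higher. Pcdhb9 lost its call under 5 of the 9 left-out arrays, old replicate 5 among them (adjusted p of up to 0.395). Pcdhb17 lost it under 4 (up to 0.411) and Pcdhb12 without young replicate 1 or 4 (up to 0.139).

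Further genes with large called effects had varied roles. Hs3st3a1, a heparan sulfate sulfotransferase, was at 6.11 to 6.60 in old and 5.42 to 5.77 in young, and rose 1.81-fold (adjusted p = 0.0168). Xanthine dehydrogenase (Xdh), the last enzyme of purine breakdown, was at 5.43 to 6.32 in old and 4.76 to 5.13 in young, and rose 1.73-fold (adjusted p = 0.00895). Xdh was highest on old replicate 5, and without it the effect was 0.68 (adjusted p = 0.0147). Ugt1a10, one of a cluster of glucuronosyltransferase transcripts that share their last exons, rose by 0.63 (adjusted p = 0.00643) and was picked after its value was seen. The cold-inducible RNA-binding protein gene Rbm3 rose by 0.75 (adjusted p = 0.00645), but 2 other probes of the gene, detected on 5 and 6 of the 9 arrays, differed by -0.01 and -0.03. Its relative Cirbp differed by 0.40 (adjusted p = 0.118), and passed with wild type old replicate 6 left out (adjusted p = 0.0296).

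Among the genes that fell, Zbtb7a, a zinc finger repressor, showed the largest difference of the called genes and the widest spread. It was at 4.58, 6.18 and 7.20 (lowest, median, highest) in old and 8.12, 7.30 and 7.90 in young. Its fall of 1.70 ± 0.36 SE (adjusted p = 0.0148) rested on old replicates 3, 4 and 6 (5.56, 5.20 and 4.58), while the other old arrays (7.08, 7.20 and 6.81) lay close to the lowest young array, and the call was lost without young replicate 1 or 4 (adjusted p of up to 0.133). Tenm1, a teneurin of neuronal connections, fell by 0.76 (adjusted p = 0.0275) and was lowest on old replicate 6, as was Zbtb7a. Without that array Tenm1 lost its call, as it did without old replicates 3 or 4 and young replicates 1 or 4 (adjusted p of up to 0.254). Irs2, an adaptor of the insulin receptor, had the same low array: it was at 5.47 on old replicate 6 and 7.42 to 8.67 on the other old arrays, against 8.12 to 8.65 in young, and was not called (-1.01, adjusted p = 0.231). On the young CASP11 -/- arrays Zbtb7a was at 4.65 to 4.99, Tenm1 at 4.58 to 4.92 and Irs2 at 6.01 to 7.05. Low levels of these genes were therefore not confined to old mice, and the cause was not tested.

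Chst3, which sulfates the chondroitin of perineuronal matrix, fell by 0.60 (adjusted p = 0.00105) and by 0.83 on its second probe, at 5.23 to 5.51 in old and 5.82 to 6.09 in young. Gamt, the last enzyme of creatine synthesis, was at 7.38 to 7.62 in old and at 8.11 to 8.12 in young, and fell by 0.56 (adjusted p = 0.00645). The cytoskeletal scaffold gene Pdlim2 fell by 0.66 (adjusted p = 0.0183), and its 3 other probes differed by -0.08, -0.45 and -0.53. Pdlim2 was lowest on old replicates 5 and 1, and it lost its call without any 1 of the young arrays (adjusted p of up to 0.158). Grm8, a presynaptic glutamate receptor (-0.48, adjusted p = 0.0114), and the receptor phosphatase gene Ptpro (-0.54, adjusted p = 0.0117) were also called lower and were picked after their values were seen.

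Several groups of neuronal and housekeeping genes held few or no calls. Over all features 0.734% were called, so lists of this size would hold few or none at that share. None of 19 dentate gyrus and CA neuron genes, 16 inhibitory neuron genes or 23 synaptic genes passed the test, with medians of -0.00106, -0.0245 and -0.0735. Of the 23 synaptic genes, 3 lay above 0. Gad1, an enzyme of GABA synthesis, was at 12.30 to 12.36 in old and 12.09 to 12.16 in young, a small difference of 0.20 (adjusted p = 0.386). Cnr1, the cannabinoid receptor, differed by -0.37 (adjusted p = 0.102) and the AMPA receptor subunit Gria2 by -0.27 (adjusted p = 0.348). One of 46 oxidative phosphorylation genes was called, the complex I subunit Ndufb9 (0.50, adjusted p = 0.0242), and none of 37 ribosomal protein genes. Ndufb9 lost its call without young replicate 1 or 4 or old replicate 6 (adjusted p of up to 0.38). None of 19 immediate early genes passed; Fosb differed by 0.70 (adjusted p = 0.392) and Klf4 by 0.38 (adjusted p = 0.178). Nor did any of 21 glucocorticoid response genes, although Plin4, a lipid droplet protein, was at 5.17 to 7.06 in old and 4.85 to 5.13 in young (1.06, adjusted p = 0.151). Of 39 lysosome and autophagy genes Ctss alone was called. The choroid plexus list (26 genes) had no call and a median of -0.144, which was 0.137 without old replicate 1. Its summed level was 5860 on that array, 30280 to 36310 on the other old and 22350 to 37080 on the young arrays. The blood cell list (11 genes) had no call. S100a8 and S100a9 were not above background on any young array.

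The age effects of the same genes in ASC -/- and wild type hippocampus, from separate arrays in the same fit, ran in the same direction for most called features. All 82 had the sign of the ASC -/- effect and 72 that of the wild type effect. Young ASC -/- replicates 1 and 4 were low in Eif2s3y (4.47 and 4.44). Young replicate 2 was at 9.88 and the old ASC -/- arrays were at 9.29 to 9.74. Age and this Y-linked level therefore could not be fully told apart in ASC -/- mice. In ASC -/- mice 31 features were called (0.277%), 11 higher (0.0984%) and 20 lower (0.179%) in old, and 890 had an unadjusted p under 0.05 (7.96%). Of the 31, 20 were called with the same sign in CIAS -/- mice, which is 24.4% of the CIAS -/- and 64.5% of the ASC -/- calls. In wild type mice 633 were called (5.66%), 322 higher (2.88%) and 311 lower (2.78%) in old, and 2308 had an unadjusted p under 0.05 (20.6%). Of the 633, 44 were shared with the same sign, 53.7% of the CIAS -/- and 6.95% of the wild type calls. Without wild type old replicate 6, 809 were called in wild type and 133 in CIAS -/- mice, and 71 were shared. There were 18 features called in all 3 genotypes and 36 called in CIAS -/- mice alone, which does not show that their effects differ. The wild type group has 4 young arrays and the others 3, so the counts do not compare the sizes of the effects.

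**Figure D4:**
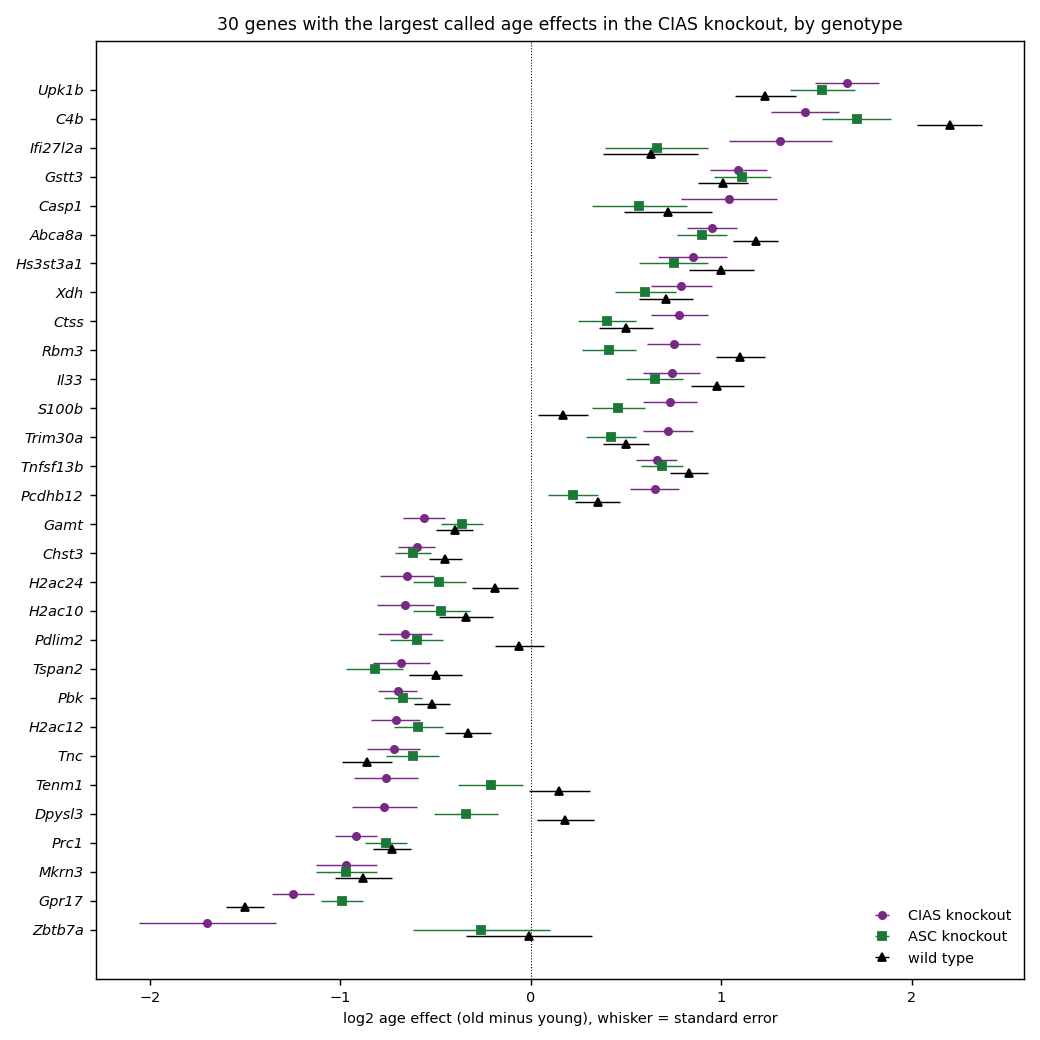
Log2 age effect (old minus young, horizontal axis, whisker = standard error) of the 15 called genes with the largest increase and the 15 with the largest decrease in CIAS -/- hippocampus, with the effects in ASC -/- and wild type hippocampus. Upk1b, Gstt3, Mkrn3 and Prc1 have effects of the same sign in the 3 genotypes, and Zbtb7a, Tenm1 and Dpysl3 lie near 0 or on the other side of it in wild type.

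Of the inflammatory genes, C4b had an age effect of 1.44 in CIAS -/-, 1.71 in ASC -/- and 2.20 in wild type mice. The CIAS -/- minus wild type difference was -0.76 (adjusted p = 0.154), and the test did not separate them. Casp1 had 1.04, 0.57 and 0.72 in the same order, with a difference of 0.32 from wild type (adjusted p = 0.78). Casp1 was at 6.61 on wild type old replicate 6 and 8.12 to 8.51 on the other old wild type arrays, and without that array its wild type effect was 1.01 and the difference 0.04 (adjusted p = 0.971). Upk1b had 1.66, 1.53 and 1.23, Gpr17 -1.25, -0.99 and -1.50, and Prc1 -0.92, -0.76 and -0.73. None of the differences for these genes passed. The median of the neurogenesis list was -0.0681 in CIAS -/-, -0.0857 in ASC -/- and -0.256 in wild type mice, and that of the myelin list -0.105, -0.104 and 0.155. Without wild type old replicate 6 the wild type medians were -0.163 and 0.0662.

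Across all features, the age effect in CIAS -/- mice differed from that in wild type mice for 42 (0.376%), 12 of them with a higher (0.107%) and 30 with a lower (0.268%) effect in CIAS -/- mice. At an unadjusted p under 0.05 there were 1471 (13.2%). For all 42 the 2 effects had opposite signs, and for 41 the ASC -/- effect lay between them. The 42 were picked for a large difference, which favours both counts, so neither count shows an order of the genotypes. Of the 42, 33 were called for age in wild type and 4 in CIAS -/- mice. The 5 with the smallest adjusted p were Hnrnpl, 5730409E04Rik, Nipsnap2, Usp45 and Dctn1, whose age effects in CIAS -/- mice did not pass on their own (adjusted p between 0.0662 for Usp45 and 0.37 for 5730409E04Rik). With wild type old replicate 6 left out, that of Usp45 passed (adjusted p = 0.0377). The ASC -/- effects of these 5 genes lay between -0.22 and -0.12, and none passed. Hnrnpl, a splicing regulator, was at 10.35, 10.51 and 11.03 (lowest, median, highest) in old CIAS -/- and 10.99 to 11.23 in young CIAS -/- mice. In wild type mice it was at 11.10, 11.22 and 11.45 in old and 9.31 to 10.62 in young. In ASC -/- mice it was at 10.39 to 11.21 in old and 11.08 to 11.19 in young. The young wild type arrays were the lowest group, and the difference of the age effects was -1.61 (adjusted p = 0.00412). Dctn1, the large subunit of the dynein activator dynactin, followed the same pattern, at 5.72 to 6.52 and 6.42 to 6.82 in old and young CIAS -/- mice and 6.29 to 6.93 and 5.53 to 5.95 in old and young wild type mice (difference -1.52, adjusted p = 0.00764).

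Nipsnap2, a mitochondrial matrix protein gene, had an age effect of -0.53 in CIAS -/- and 0.73 in wild type mice (difference -1.27, adjusted p = 0.00475). For 5730409E04Rik the effects were -0.22 and 0.62 (difference -0.84, adjusted p = 0.00412). Usp45, a deubiquitinase gene, had -0.51 and 0.54 (difference -1.05, adjusted p = 0.0063), but its second probe, detected on 3 of the 9 CIAS -/- arrays, had an effect of 0.03 in CIAS -/- mice. Pcdhb17, called higher in old CIAS -/- mice, had an effect of 0.55 there and -0.31 in wild type mice (difference 0.86, adjusted p = 0.0216), and the endocannabinoid receptor gene Cnr1 had -0.37 and 0.26 (difference -0.63, adjusted p = 0.0329). Ndufb8, a complex I subunit, differed by 0.27 (adjusted p = 0.0424).

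The count of 42 moved with the arrays used. It was 89 without CIAS -/- old replicate 5 and 46 without old replicates 1 and 5. It was 140 without wild type old replicate 6, and all of the 42 were among them. Leaving out CIAS -/- young replicate 1, 2 or 4 gave 82, 22 or 8. Leaving out wild type young replicate 1, 3 or 4 gave 18, 27 or 18, and leaving out wild type old replicate 2 gave 21. All 9 CIAS -/- arrays were high in Eif2s3y, against 2 of 4 young and 5 of 6 old wild type arrays. With high or low Eif2s3y as a covariate the count was 26, and with the CIAS -/- and wild type arrays fitted alone it was 17. Hnrnpl, 5730409E04Rik, Nipsnap2, Usp45 and Dctn1 kept their calls under all 31 alternatives run for this difference.

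**Figure D5:**
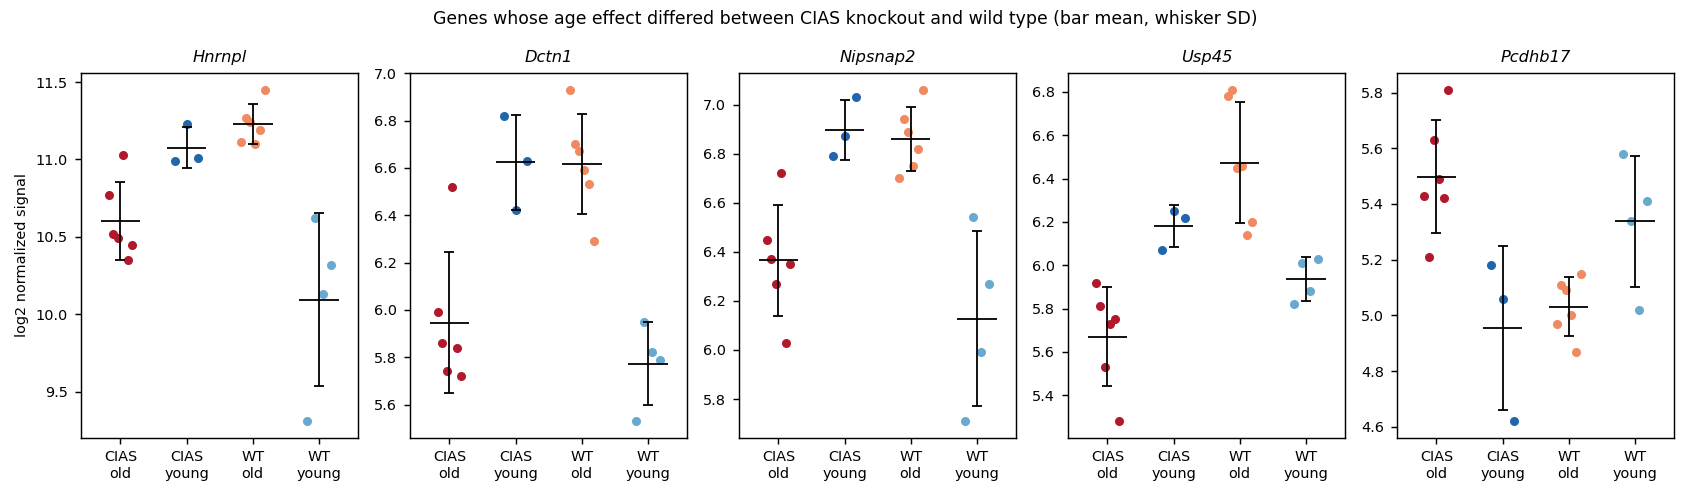
Log2 normalized signal of 5 genes on each array of old and young CIAS -/- and old and young wild type (WT) hippocampus, with the mean as a bar and the SD as a whisker. For Hnrnpl, Dctn1, Nipsnap2 and Usp45 the old CIAS -/- arrays lie mostly below the young ones while the old wild type arrays lie above the young ones, and Pcdhb17 shows the opposite.

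Against ASC -/- mice, no feature passed the test of a different age effect (0 of 11178 by limma, 453 at an unadjusted p under 0.05, 4.05%). With high or low Eif2s3y as a covariate the count was also 0. The differences for single genes were not always small: for Zbtb7a the CIAS -/- minus ASC -/- difference was -1.44 and for Ifi27l2a 0.64, both with an adjusted p of 0.995. A missed threshold with 3 young arrays in each genotype does not show that the 2 knockouts age alike.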

How the data were processed

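Total RNA of hippocampus was hybridised to Illumina bead arrays. The authors deposited, per the file headers, a signal intensity and a detection p-value for each probe and array, and a table of normalized intensity values, of which 24.4% are below 0. Per the submitters' processing notes GenomeStudio was used, and further steps are not given in the sources used here. Arrays were grouped by their titles. The intensities were background-corrected and quantile-normalized with neqc (limma 3.58.1, R 4.3.3, offset 16) and put on the log2 scale. Probes with a detection p under 0.05 on at least 3 of 32 arrays were kept, and the probe with the highest mean stood for its gene. limma fitted 7 group means over all 32 arrays, with Benjamini-Hochberg adjustment over 11178 features. Age effects, and their differences between genotypes, were contrasts of that fit. On simulated data for the CIAS -/- age effect (11178 features), 68 of 100 changes of 0.5 and 94 of 100 changes of 1 on the log2 scale were recovered, with 5 false calls. The simulated noise was independent between genes and arrays and alike in all groups. It held no shared deviations such as the differing myelin content, so these counts do not give the error rate of the calls. The members and gene lists were chosen with earlier results of these data known. Named genes were 6 inflammasome genes, the 15 called genes with the largest fold in each direction, up to 5 genes for each difference between genotypes, and, of each of 40 lists, the called members or the members with the smallest adjusted p up to 2; others were picked after their values were seen. The alternatives were other background settings, the deposited values, other filters, array weights, another variance model, the replicate number as a block, fewer groups, a sex-linked covariate and arrays left out. Replicate numbers did not pair the samples (correlations of -0.0045, -0.176 and 0.135).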

Additional observations from a re-analysis of the deposited data

Results flagged for a closer look

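In 140 groups of arrays tested, 18 held 1 array far from the others, where chance gives about 1 in 20. Xist, Ttr and Ltf were picked for such values, and S100a8, S100a9 and Ltf stand out on the same array, so the number is not to be read against that rate. Old CIAS -/- replicate 1 was low in Hs3st3a1 (6.11, next 6.45), Samd9l (7.99, next 8.23), B2m (10.88, next 11.09), Lyz1 (8.49, next 9.31) and Ttr (9.61, next 14.03). Old replicate 3 was high in S100a8 (8.17, next 5.81), S100a9 (8.03, next 5.94), Ltf (7.41, next 5.33) and Klf4 (6.43, next 5.96) and low in Osmr (6.71, next 6.88). Old replicate 5 was high in Xist (7.76, next 5.22) and Xdh (6.32, next 5.71). Old replicate 6 was high in Trim30a (6.01, next 5.80) and low in Gria2 (11.94, next 12.61). Old replicate 4 was high in Dctn1 (6.52, next 5.99) and low in Insig2 (10.23, next 10.34). Old replicate 2 had a high median signal (79.0, next 67.02), and ASC -/- old replicate 4 was low in Nipsnap2 (6.06, next 6.54).

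The age effect differed between CIAS -/- and wild type mice, by limma's test of the difference itself, for Hnrnpl (-1.61), Dctn1 (-1.52), Nipsnap2 (-1.27), Usp45 (-1.05), 5730409E04Rik (-0.84), Cnr1 (-0.63), Pcdhb17 (0.86) and Ndufb8 (0.27), on the log2 scale and as CIAS -/- minus wild type. Across the alternatives run for each, Ndufb8 lost its call under 19 of 31, Cnr1 under 14 of 31 and Pcdhb17 under 3 of 30.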

How the results depend on the processing

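No called effect of a named gene changed sign under an alternative run for it. Array weights gave 333 features called for age in CIAS -/- mice (187 higher, 146 lower), 265 for the difference from wild type and 79 list members, against 82, 42 and 29. Leaving out 1 array gave 34 to 133 features for age, 8 to 140 for the difference from wild type, 0 for the difference from ASC -/- and 14 to 44 list members. For the difference from wild type, a covariate for Eif2s3y gave 26 and the CIAS -/- and wild type arrays alone gave 17. With the replicate number as a block, which did not pair the samples, the counts were 62, 41, 0 and 26. The CIAS -/- arrays alone gave 57 features for age, of which 39 were among the 82. Of the 52 called genes picked to be named, 15 kept their call with any 1 CIAS -/- array left out, 23 under the other alternatives and 13 under both. Without old replicates 1 and 5, an alternative added after seeing the data, 40 kept it. The causes of these changes were not tested. The 3 young arrays limit the precision, and probes near background limit low genes.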
